A study of Homo sapiens with 6 samples.

Results

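The genes described here are those of the NRF2 circuit: NFE2L2, which encodes NRF2, and 9 genes whose products restrain it, partner it, compete with it or answer to it (NFE2L1, KEAP1, CUL3, BACH1, MAFG, MAFF, MAFK, OSGIN1 and SQSTM1). They were taken by gene symbol from the deposited expression tables, and all 10 were found among 26255 listed genes and were among the 12035 genes tested. The cells were HT29, a widely used human line derived from a colorectal adenocarcinoma. One group of 3 libraries came from cells that had received YM155, a survivin (BIRC5) suppressant, for 24 h at a dose not given in the sources used here. The treatment label reads YM155, whereas the library titles and table headers read YM115; the label was followed. The other group of 3 libraries came from cells given DMSO, the solvent. Both groups are the same unmodified line, so the results describe 1 line at 1 time. Values are FPKM, fragments per kilobase of transcript relative to library size, which correct for transcript length and allow levels of different genes to be set side by side. Whether the triplicates were separate cultures is not stated; the p-values therefore reflect only the spread among these libraries, which may be technical.

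NRF2 is a transcription factor of the cap'n'collar family that switches on genes of antioxidant defence, glutathione synthesis and detoxification. In unstressed cells KEAP1, an adaptor of the CUL3 ubiquitin ligase, binds NRF2 and marks it for the proteasome; electrophiles and oxidants modify cysteines of KEAP1, and NRF2 then accumulates. NRF2 binds antioxidant response elements as a partner of a small MAF protein (MAFG, MAFF or MAFK), and BACH1, a repressor released by heme, uses the same partners and competes for the same sites. SQSTM1 (p62), an autophagy receptor, can hold KEAP1 away from NRF2, and SQSTM1, OSGIN1 and MAFG are themselves known as NRF2 target genes. Much of this control acts on protein, which was not measured here.

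All 10 genes were higher with YM155 by limma on log2(FPKM + 1), at an adjusted p under 0.05 over all tested genes, and all but CUL3 also after each of the scalings tried. That call was common: 43.6% of tested genes passed it as higher and 41% as lower. These shares depend on level: of the 8575 genes with a mean FPKM of at least 5, 4419 were higher and 2922 lower. A log2 fold change of at least 1 was reached by 9 of the 10, against 15.9% of tested genes, and one of at least 2 by 6 of the 10, against 3.44%. The changes ran from 1.25-fold for CUL3 to 39.5-fold for OSGIN1. NFE2L2, NFE2L1 and KEAP1 rose 2.74-fold, 2.62-fold and 2.67-fold, the small MAF genes and BACH1 rose between 5.30-fold and 7.21-fold, and SQSTM1 and OSGIN1 rose 10.6-fold and 39.5-fold. The 2 groups did not overlap for any of the 10 genes, as for 85.9% of tested genes.

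**Figure D1:**
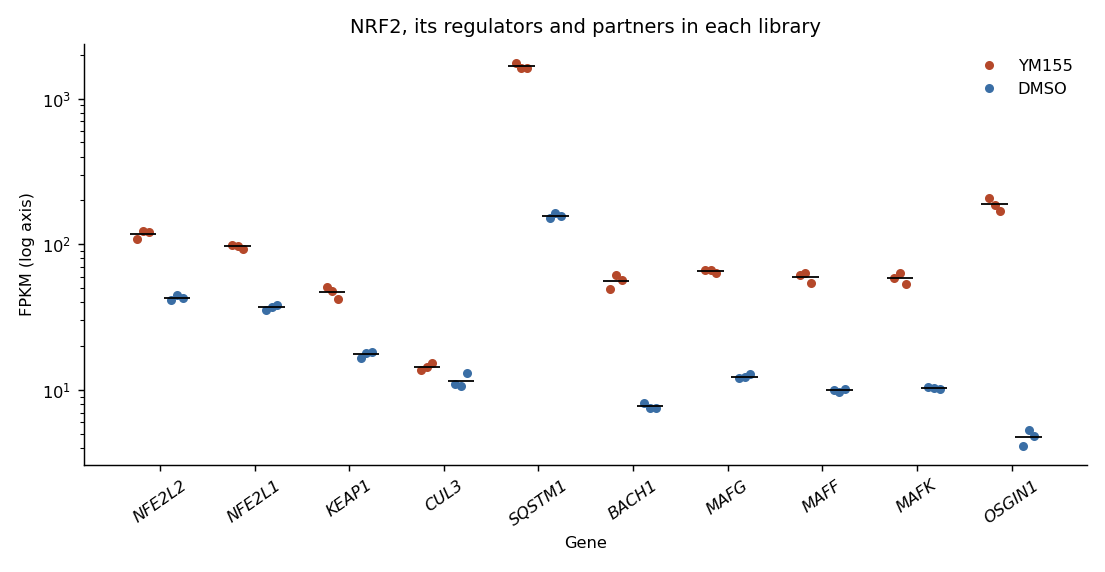
FPKM (log axis) of each of the 10 genes in each library, with the YM155 libraries left of the DMSO libraries; points are single libraries and black lines are group means. The 3 YM155 points lie above the 3 DMSO points for every gene, with the narrowest gap at CUL3 and the widest at OSGIN1.

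FPKM summed to 684616 ± 9919 per YM155 library and 547222 ± 13938 per DMSO library (SD, n = 3 each), and the direction of small changes depended on scaling. Of the genes called either way, 51.5% were higher as deposited, against 40.7% with upper-quartile scaling and 37.4% once libraries were brought to a common sum. These scalings shifted the median over all genes by -0.22 and -0.28 on the log2 scale, and quantile normalization shifted it by -0.11. Steps between low FPKM values put the depth at about 15.3 to 17.9 M reads in the YM155 libraries and 24.6 to 27.2 M reads in the DMSO libraries. Any scaling between libraries already in the values would be part of these estimates. BIRC5, the gene of survivin, was at 7.13, 6.07 and 5.89 FPKM with YM155 and 21.6, 20.98 and 22.8 FPKM with DMSO. Of 12 markers of colorectal epithelium 10 were tested, of which 7 were higher and 2 lower with the deposited values. Under each of these 3 scalings 6 were higher and 3 lower. KRT20 was at 805 ± 51.9 FPKM with YM155 and 120.1 ± 1.36 FPKM with DMSO. The 2 that were lower, named after their values were seen, were CDX2, an intestinal transcription factor (0.839 ± 0.144 FPKM with YM155 and 3.20 ± 0.456 FPKM with DMSO), and VIL1, of the brush border (22.3 ± 2.63 FPKM with YM155 and 38.6 ± 0.706 FPKM with DMSO; SD, n = 3 each). CDX1 and GPA33 stayed under 1 FPKM. The 11 markers of leukocytes, fibroblasts and endothelium summed to 0.661 to 0.951 FPKM per YM155 library and 1.17 to 1.57 FPKM per DMSO library.

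Promoter sequences were matched by symbol in RefSeq (GRCh38.p14, 250 bases before to 50 after each start site) for 9 of the 10 genes, 18 start sites in all. They were searched on both strands for the core of the antioxidant response element (TGACNNNGC), the C/EBP-ATF response element through which ATF4 acts (TGATGNAA), and the AP-1 site (TGACTCA), whose first bases are those of the antioxidant core, so that a site can hold both. The antioxidant core was present at 2 of the 18 start sites, 1 of KEAP1 and 1 of MAFF, against 13.3% of all 35116 promoters of the same length. The AP-1 site was present at 2 of the 18, 1 of BACH1 and 1 of OSGIN1, against 4.95% of all promoters, and the C/EBP-ATF element at 0 of 18, against 3.62%. The stretches are shown because they are the matches found near the starts of these genes; capitals mark the match and each stretch reads along the strand of its gene. No match says only that these letters are not in these windows, and a match is a description, not a binding site. The OSGIN1 stretch is chr16:83953123-83953169 (plus strand), with the match at -97 to -91 from the start site. The BACH1 stretch is chr21:29298854-29298900 (plus strand), with the match on the opposite strand at -48 to -42. The MAFF stretch is chr22:38201852-38201900 (plus strand), with the match on the opposite strand at -122 to -114. The KEAP1 stretches, chr19:10502797-10502845 and chr19:10502774-10502822 (minus strand), overlap and hold one match on each strand, at -54 to -46 and at -31 to -23 of the same start site.
OSGIN1: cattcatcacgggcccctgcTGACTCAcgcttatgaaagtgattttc
BACH1: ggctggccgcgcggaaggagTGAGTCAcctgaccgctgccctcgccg
MAFF: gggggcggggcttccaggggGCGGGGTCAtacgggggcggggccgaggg
KEAP1, first match: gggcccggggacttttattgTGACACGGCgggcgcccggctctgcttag
KEAP1, second match: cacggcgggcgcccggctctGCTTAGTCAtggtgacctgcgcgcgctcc

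NFE2L2 itself was measured at 109.5, 123 and 122 FPKM in the YM155 libraries and at 41.5, 44.9 and 42.9 FPKM in the DMSO libraries. Its 3 YM155 libraries were all far above its 3 DMSO libraries, with means of 118 ± 7.53 FPKM with YM155 and 43.1 ± 1.67 FPKM with DMSO (SD, n = 3 each). The log2 fold change was 1.43 (SE 0.06, 95% confidence interval 1.31 to 1.56, adjusted p = 2.7e-08 by limma). NFE2L1, the gene of NRF1, a related factor that sits in the endoplasmic reticulum membrane and induces proteasome genes when the proteasome is impaired, was at 99.6, 97.1 and 93.1 FPKM with YM155 and 35.5, 36.9 and 38.1 FPKM with DMSO. Its log2 fold change was 1.37 (SE 0.05, 95% confidence interval 1.26 to 1.47). The 2 intervals overlap, and the ratio of NFE2L2 to NFE2L1 within a library was 1.23 ± 0.112 with YM155 and 1.17 ± 0.0452 with DMSO (SD, n = 3 each), with overlapping groups.

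KEAP1, the repressor of NRF2, was at 50.8, 47.9 and 41.9 FPKM with YM155 and 16.7, 17.8 and 18.1 FPKM with DMSO. Its coefficient of variation was 9.67% with YM155 and 4.36% with DMSO, and its log2 fold change was 1.36 (SE 0.07, 95% confidence interval 1.198 to 1.53, adjusted p = 1.8e-07). Repressor and substrate changed by similar amounts on the RNA level. The ratio of NFE2L2 to KEAP1 was 2.16, 2.57 and 2.92 in the YM155 libraries and 2.49, 2.51 and 2.37 in the DMSO libraries. The YM155 ratios lay on both sides of the DMSO ratios. Such a ratio is taken within a library and is not changed by a single scaling factor per library. Quantile normalization is not of that kind, and gave log2 fold changes of 1.00 for NFE2L2 and 1.02 for KEAP1.

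CUL3, the scaffold of the ligase for which KEAP1 is an adaptor, moved least. It was at 13.8, 14.3 and 15.4 FPKM with YM155 and 11.0, 10.7 and 13.01 FPKM with DMSO. The lowest YM155 library was close to the highest DMSO library. The log2 fold change was 0.31 (SE 0.08, 95% confidence interval 0.12 to 0.49, adjusted p = 0.0056), and 61.9% of tested genes had a lower one. The call of CUL3 held with median-of-ratios scaling (log2 fold change 0.27, adjusted p = 0.011 by limma). It ended with upper-quartile scaling (log2 fold change 0.07, adjusted p = 0.41), rescaling to a common sum (0.0055, adjusted p = 0.96) and quantile normalization (0.11, adjusted p = 0.25). With the shift of the median of all genes under each scaling subtracted, these 3 changes were 0.29, 0.29 and 0.22. For upper-quartile and common-sum scaling, which use a single factor per library, that subtraction largely undoes the scaling. It therefore cannot decide whether CUL3 rose.

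**Figure D2:**
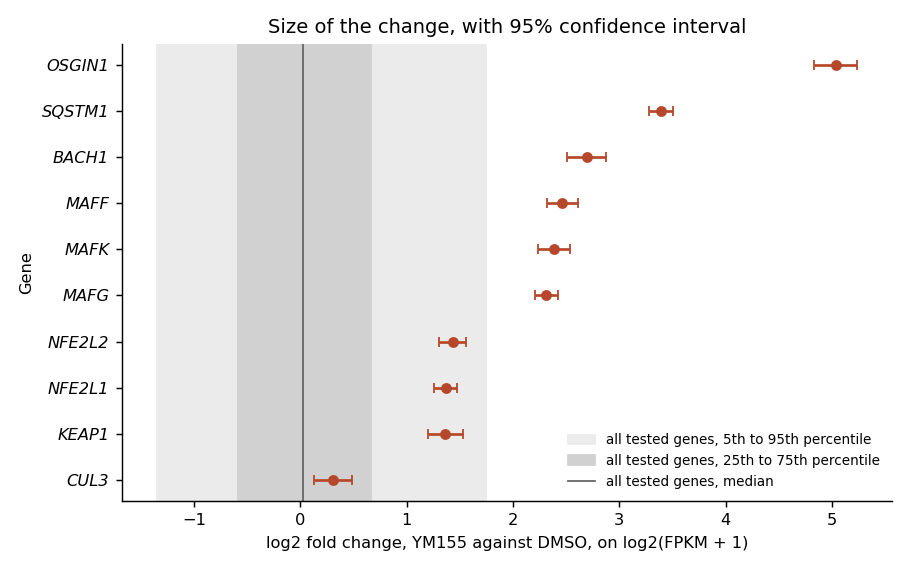
The log2 fold change of each of the 10 genes (YM155 against DMSO, on the log2(FPKM + 1) scale) with its 95% confidence interval, over bands that span the 5th to 95th and the 25th to 75th percentile of all tested genes. OSGIN1 (5.04), SQSTM1 (3.39), BACH1 and the small MAF genes lie above the 95th percentile of 1.75, NFE2L2, NFE2L1 and KEAP1 lie within the outer band but above the inner one, and CUL3 (0.31) within the inner band.

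SQSTM1 was the most abundant of the 10 genes in both groups. It was at 1751, 1609 and 1627 FPKM with YM155 and 153, 164 and 156 FPKM with DMSO, which placed it above 99.4% of tested genes with YM155 and above 96.9% with DMSO. The log2 fold change was 3.39 (SE 0.05, adjusted p = 1.6e-10), the 66th largest rise of all tested genes. Against KEAP1, the protein that p62 binds, its RNA stood at a ratio of 34.5, 33.6 and 38.9 in the YM155 libraries and 9.15, 9.17 and 8.61 in the DMSO libraries, so the mean ratio was 3.97 times as high with YM155. MGAT4B, a glycosyltransferase gene that overlaps SQSTM1 on the opposite strand in GENCODE, was at 282 ± 17.5 FPKM with YM155 and 82.1 ± 4.80 FPKM with DMSO (SD, n = 3 each); whether strand was used in quantification is not given, so reads of the 2 genes may be mixed.

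BACH1 was at 49.0, 61.3 and 57.1 FPKM with YM155 and 8.14, 7.56 and 7.51 FPKM with DMSO, where only OSGIN1 of the 10 was scarcer. It rose 7.21-fold (log2 fold change 2.70, SE 0.08, 95% confidence interval 2.51 to 2.88, adjusted p = 5.7e-09), which is above the interval of NFE2L2. The RNA levels of activator and competitor were closer to each other with YM155. The ratio of NFE2L2 to BACH1 was 2.23, 2.01 and 2.14 in the YM155 libraries and 5.103, 5.93 and 5.72 in the DMSO libraries, without overlap. The intronic transcript BACH1-IT2 was at 0, 0 and 0.214 FPKM with YM155 and 0.367, 0 and 0.0681 FPKM with DMSO.

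**Figure D3:**
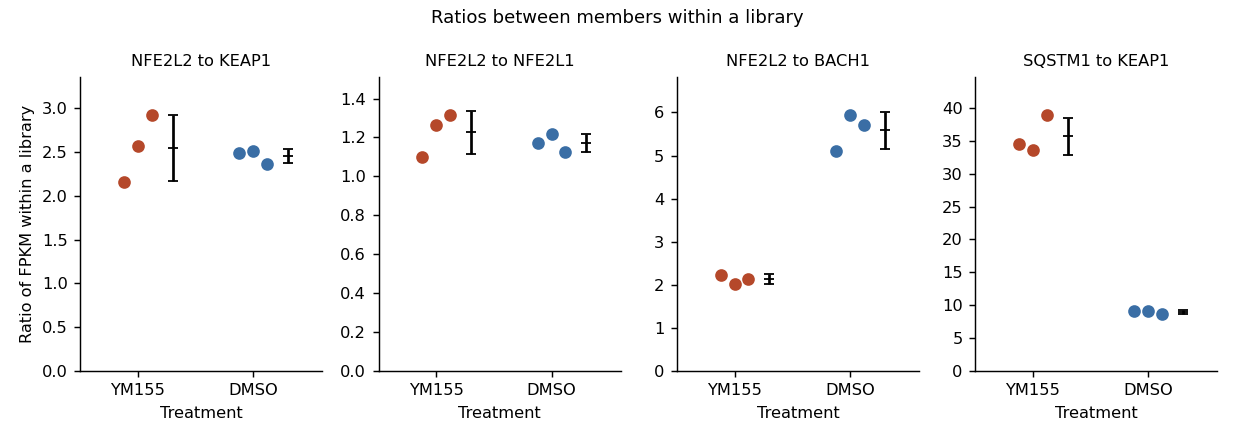
Ratios of FPKM between genes within each library, YM155 left and DMSO right in every panel; points are single libraries, and bars are the mean and SD of 3. NFE2L2 to KEAP1 and NFE2L2 to NFE2L1 overlap between the groups, NFE2L2 to BACH1 is lower with YM155 (2.13 against 5.58) and SQSTM1 to KEAP1 is higher (35.7 against 8.98).

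The 3 small MAF genes, which encode partners without an activation domain of their own, rose by nearly the same factor. MAFG was at 66.9, 66.4 and 63.3 FPKM with YM155 and 12.1, 12.2 and 12.8 FPKM with DMSO. MAFF was at 61.5, 63.8 and 54.3 FPKM with YM155 and 10.1, 9.76 and 10.2 FPKM with DMSO. MAFK was at 58.9, 63.4 and 53.3 FPKM with YM155 and 10.5, 10.4 and 10.2 FPKM with DMSO. The third YM155 library was the lowest for all 3 genes. Their log2 fold changes were 2.32 for MAFG, 2.46 for MAFF and 2.39 for MAFK (SE 0.05, 0.06 and 0.06), with overlapping 95% confidence intervals. Their summed level was 184 ± 11.7 FPKM with YM155 and 32.7 ± 0.472 FPKM with DMSO (SD, n = 3 each), 5.62 times as high. Within that sum MAFG held 35.7% ± 1.35 with YM155 and 37.8% ± 0.831 with DMSO, and MAFK 31.8% ± 0.831 with YM155 and 31.7% ± 0.856 with DMSO. MAFF held 32.5% ± 0.637 with YM155 and 30.6% ± 0.329 with DMSO, and its groups did not overlap.

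The genes that overlap the small MAF genes in GENCODE and were measured here had smaller changes than these. SIRT7, on the same strand as MAFG, was at 38.8 ± 0.613 FPKM with YM155 and 14.5 ± 0.488 FPKM with DMSO. TMEM184A, opposite MAFK, was at 20.4 ± 1.12 FPKM with YM155 and 12.2 ± 0.344 FPKM with DMSO. PLA2G6, opposite MAFF, was at 3.76 ± 0.813 FPKM with YM155 and 3.29 ± 0.394 FPKM with DMSO (SD, n = 3 each for these 3 genes). How far reads are shared within these pairs was not tested. MAFG-AS1, named as an antisense gene of MAFG but not among the overlaps found, was at 1.06 ± 0.176 FPKM with YM155 and 2.29 ± 0.174 FPKM with DMSO.

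OSGIN1, which encodes an oxidative stress-induced growth inhibitor, had the largest change of the 10 and the 5th largest rise of all tested genes. It was at 206, 186 and 170.3 FPKM with YM155 and 4.13, 5.30 and 4.82 FPKM with DMSO. Its log2 fold change was 5.04 (SE 0.09, 95% confidence interval 4.83 to 5.24, adjusted p = 3.4e-10), and its coefficient of variation was 9.66% with YM155 and 12.3% with DMSO.

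The order of the levels also differed between the groups. With YM155 it ran from SQSTM1 through OSGIN1, NFE2L2, NFE2L1, MAFG, MAFF, MAFK, BACH1 and KEAP1 to CUL3. MAFG, MAFF and MAFK overlapped one another in their libraries, as did MAFF, MAFK and BACH1, and BACH1 overlapped KEAP1. Every MAFG library was above every BACH1 library, and every library of the small MAF genes was above every KEAP1 library. With DMSO it ran from SQSTM1 through NFE2L2, NFE2L1, KEAP1, MAFG, CUL3, MAFK, MAFF and BACH1 to OSGIN1, with overlap between MAFG and CUL3 and between MAFK and MAFF. OSGIN1 stood second with YM155, above 96.4% of tested genes, and last with DMSO, above 28.3% of them. BACH1 stood above 85.9% of tested genes with YM155 and above 42.7% with DMSO. These are bulk libraries, in which a different mix of cells and a different amount of RNA per cell cannot be told apart.

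The tested genes whose centred log2(FPKM + 1) values lay nearest to those of NFE2L2 over the 6 libraries were SH2B3, PALLD and SMG1P3 (Euclidean distances 0.0421, 0.0606 and 0.0834). PALLD, the gene of an actin-binding protein, was at 11.0 ± 0.815 FPKM with YM155 and 3.54 ± 0.264 FPKM with DMSO. SH2B3 was at 3.88 ± 0.278 FPKM with YM155 and 0.782 ± 0.0388 FPKM with DMSO. SMG1P3 was at 2.86 ± 0.171 FPKM with YM155 and 0.399 ± 0.0261 FPKM with DMSO. Their folds, 3.11 for PALLD, 4.96 for SH2B3 and 7.16 for SMG1P3, were above the 2.74 of NFE2L2. The log2(FPKM + 1) scale understates changes of low values. The nearest to KEAP1 were ARHGDIA, NFKBIL1 and NT5C (0.0687, 0.0700 and 0.0786). ARHGDIA was at 207 ± 13.998 FPKM with YM155 and 80.5 ± 4.45 FPKM with DMSO (SD, n = 3 each for all genes of this paragraph). Such likeness is a description over 6 libraries that mainly share the treatment.

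Of 30 NRF2 target genes 29 were tested, and all 29 rose with the deposited values, against 27 with upper-quartile or common-sum scaling and 25 with quantile normalization. Of all 12035 tested genes, 43.6% rose with the deposited values. With upper-quartile, common-sum and quantile scaling, 4193, 3830 and 4623 of them rose. The median log2 fold change of the 29 targets was 1.79, against 0.02 for all tested genes. SRXN1, which repairs oxidised peroxiredoxins, rose 25.9-fold, GCLC, of glutathione synthesis, 20.7-fold, TXNRD1, the thioredoxin reductase, 11.5-fold and AKR1B10, a carbonyl reductase, 8.22-fold. The smallest rise was that of CBR1, which passed as lower after quantile normalization (log2 fold change 0.21 with the deposited values and -0.14 then) and is named after its values were seen. ABCC2 was under 1 FPKM in every library and was not tested.

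**Figure D4:**
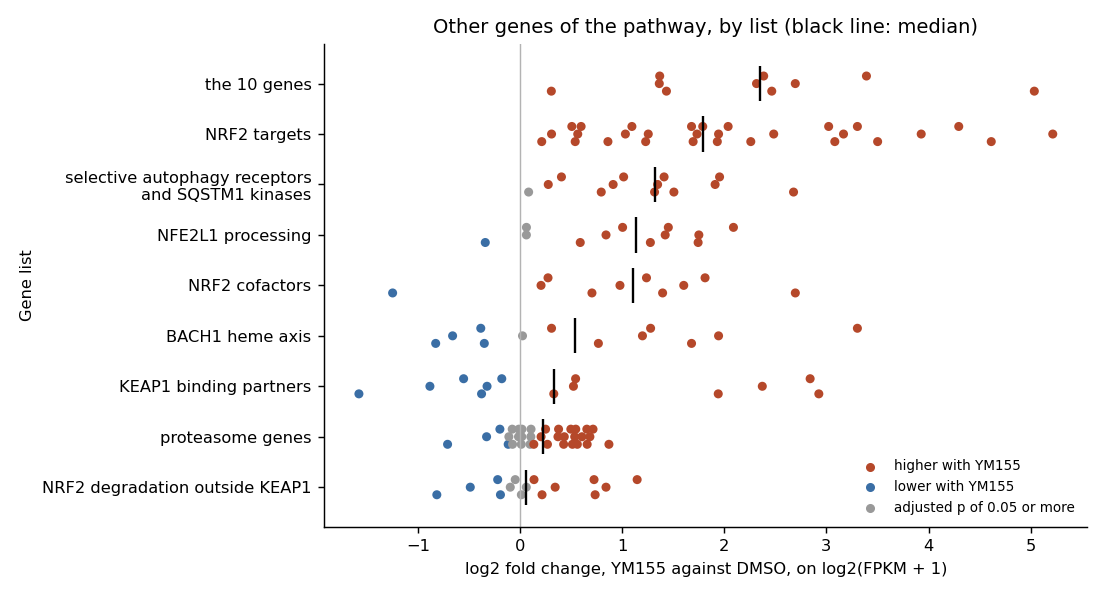
The log2 fold change (YM155 against DMSO, on log2(FPKM + 1)) of each tested gene, by list, with the 10 genes of the circuit on top; colour shows the call by limma and the black line is the median of the list. The medians of the lists drawn run from 1.79 for NRF2 targets to 0.06 for NRF2 degradation outside KEAP1. In the latter, which also holds genes that serve the ligases, CUL3 included (such as NEDD8 and UBE2M), higher and lower genes lie side by side. The list of other CNC-BACH and MAF genes, with 1 tested gene (NFE2L3, log2 fold change -1.01), is not drawn.

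The genes that degrade NRF2 outside KEAP1, or serve the ligases, moved both ways. Of 15, 7 rose, 4 fell and 4 did not pass, with a median log2 fold change of 0.06. The 46.7% that rose are near the 43.6% of all tested genes, and the 26.7% that fell stand beside 41%. GSK3A, a kinase that marks NRF2 for beta-TrCP, rose 2.24-fold, SYVN1, a ligase of the endoplasmic reticulum, 1.82-fold, and UBE2M, which conjugates NEDD8 to cullins, 1.68-fold. NEDD8 itself, the ubiquitin-like protein that activates CUL3, fell 1.77-fold to 94.0 ± 0.338 FPKM with YM155, against 166 ± 9.96 FPKM with DMSO. SKP1, an adaptor of the CUL1 ligase, did not pass (93.0 ± 4.01 FPKM with YM155 and 89.1 ± 2.21 FPKM with DMSO). After upper-quartile scaling 4 of the list were higher and 9 lower.

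Among 13 genes of proteins that bind KEAP1, NRF2 or p62 and act on their complex, 7 rose and 6 fell (median log2 fold change 0.33). These are 53.8% and 46.2%, against 43.6% and 41% of all tested genes, so neither share is far from the background. SLK, a kinase, rose 8.05-fold, CDKN1A, encoding p21, 7.89-fold, the sestrin gene SESN2 5.59-fold and FAM129B 3.87-fold. The falls, named after their values were seen, included MCM3 of the replicative helicase (log2 fold change -1.58) and PALB2 of homologous recombination (-0.55).

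NFE2L3, the remaining NRF family gene with a tested level, fell 2.15-fold, to 7.97, 7.48 and 7.53 FPKM with YM155, against 16.9, 15.6 and 16.8 FPKM with DMSO (log2 fold change -1.01, SE 0.06, adjusted p = 3e-07). Its direction was opposite to that of NFE2L2 and NFE2L1. The other 6 CNC-BACH and MAF genes listed did not reach the filter: MAF, for example, was listed at 0 in all 6 libraries. BACH2, the paralogue of BACH1, was at 0.514, 0.696 and 0.490 FPKM with YM155 and 0.0535, 0.0328 and 0.0779 FPKM with DMSO.

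Of 12 tested genes whose products release, trim, degrade or otherwise act on NRF1, 9 rose, 1 fell and 2 did not pass. Their median log2 fold change was 1.14, and over all tested genes 43.6% were higher and 41% lower. DDI2, the protease that activates NRF1, rose 3.16-fold, FBXW7, a ligase subunit, 4.70-fold, HCFC1, a cofactor, 3.48-fold and HERPUD1, of degradation at the endoplasmic reticulum, 3.42-fold. VCP, the segregase that extracts NRF1 from the membrane, did not pass (101 ± 3.19 FPKM with YM155 and 96.6 ± 2.65 FPKM with DMSO). OGT, the O-GlcNAc transferase gene, named after its values were seen, fell (log2 fold change -0.34). Of 34 proteasome subunit genes, known targets of NRF1, 19 rose, 4 fell and 11 did not pass, with a median log2 fold change of 0.23. These are 55.9% higher and 11.8% lower, against 43.6% and 41% of all tested genes. PSMD8 rose 1.83-fold, PSMD11 1.66-fold and PSMD2 and PSMD7 each 1.58-fold, and PSMB3 did not pass (284 ± 4.81 FPKM with YM155 and 266 ± 18.1 FPKM with DMSO), although it did without DMSO replicate 2 (log2 fold change 0.15, adjusted p = 0.022 by limma). The proteasome count turned to 9 higher and 20 lower with quantile normalization and 11 higher and 17 lower after rescaling to a common sum.

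In the heme axis of BACH1, 7 of 12 genes rose, 4 fell and 1 did not pass (median log2 fold change 0.54). The shares, 58.3% higher and 33.3% lower, are not far from the 43.6% and 41% of all tested genes. The ferritin genes FTH1 and FTL rose 9.87-fold and 3.20-fold, ALAS1, the first enzyme of heme synthesis, 2.49-fold and BLVRB, a biliverdin reductase, 2.32-fold; HMOX2 did not pass (26.4 ± 2.29 FPKM with YM155 and 25.9 ± 1.61 FPKM with DMSO). FTH1, FTL, HMOX1 and SLC48A1 are also on the list of NRF2 targets. HMOX1, the gene of heme oxygenase and a target that BACH1 represses, rose in the same libraries as BACH1. It was at 8.31 ± 1.73 FPKM with YM155 and 1.40 ± 0.133 FPKM with DMSO (SD, n = 3 each; log2 fold change 1.94), and is named after its values were seen.

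Of 13 autophagy receptors and kinases linked to SQSTM1, 12 rose and 1 did not pass (median log2 fold change 1.32). These are 92.3% higher and 0% lower, against 43.6% and 41% of all tested genes. GABARAPL1 and MAP1LC3B, the membrane proteins that p62 binds, rose 6.70-fold and 3.90-fold, the receptor gene TAX1BP1 2.88-fold and the kinase gene CSNK2A1 2.57-fold, whereas the ferritin receptor gene NCOA4 did not pass (47.9 ± 1.88 FPKM with YM155 and 45.2 ± 0.720 FPKM with DMSO), although it did without YM155 replicate 1 (log2 fold change 0.115, adjusted p = 0.038 by limma). Of 10 cofactors of NRF2, 9 rose and 1 fell (median log2 fold change 1.11). These are 90% higher and 10% lower, beside the same 43.6% and 41%. The acetyltransferase gene CREBBP rose 3.84-fold and the retinoid receptor gene RARA 2.86-fold. The 1 that fell, named after its values were seen, was CHD6, a chromatin remodeller (log2 fold change -1.25). SKP1, VCP, HMOX2, NCOA4 and PSMB3, given above as not passing, passed as lower with upper-quartile, common-sum and quantile scaling alike.

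**Figure D5:**
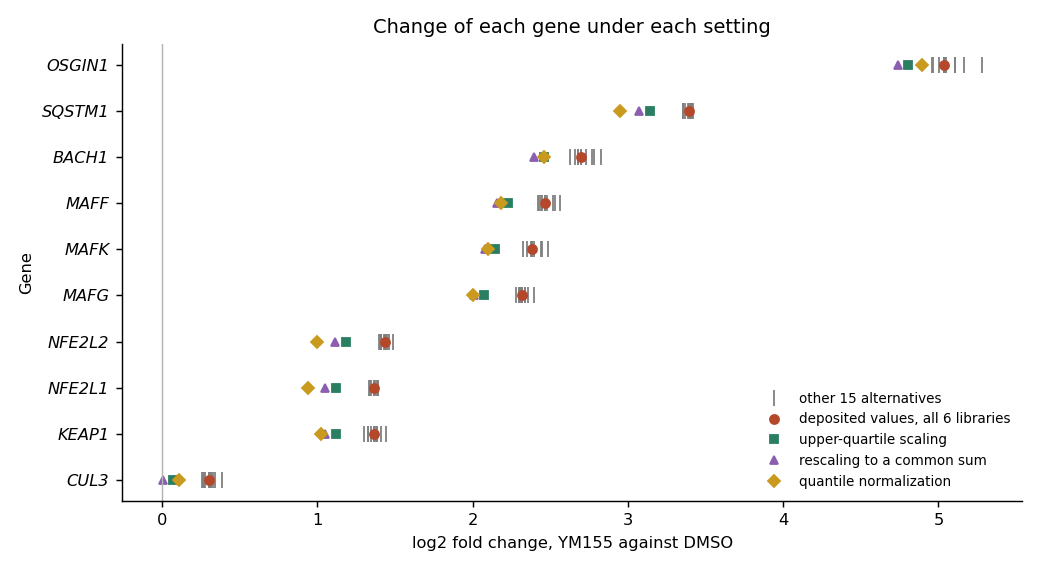
The log2 fold change of each of the 10 genes (YM155 against DMSO) with the deposited values and under 18 alternatives. Upper-quartile, common-sum and quantile scaling, 3 in all, have symbols of their own. The other 15, median-of-ratios scaling among them, are grey ticks. These 3 scalings lie to the left of the other settings for every gene, and bring CUL3 to between 0.0055 and 0.11.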

How the data were processed

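The authors deposited 1 table per library of FPKM values by gene symbol, 3 for YM155 and 3 for DMSO at 24 h. Cufflinks 2.2.1 with Cuffdiff, SAMtools 1.2, TopHat2 2.1.1 and Bowtie2 2.3.5.1 are named in the submitters' processing notes, with build hg19. The sources used here do not give the annotation, the library totals or the use of strand. Per the labels' protocols, the library kit was a stranded one for mRNA. Some scaling between libraries may already be in the values.

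Genes with at least 1 FPKM in at least 3 libraries were compared on log2(FPKM + 1) with limma 3.58.1 in R 4.3.3 (eBayes with trend, two-sided, Benjamini-Hochberg over all 12035 genes, threshold 0.05), after tests on simulated data. Folds are ratios of mean FPKM; the log2 scale understates changes of low values. Depth was estimated from single-transcript genes (GENCODE release 29) with an assumed fragment length of 200 bases; 61.7% to 67.8% of low values fell within 0.1 read of a whole number, so no count test was run.

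The 10 genes and the lists were chosen with earlier results of these data known. Named were the 10 genes, up to 4 list members with the lowest p, the most abundant one not passing, all tested members of lists of 8 or fewer, BIRC5, and the 3 genes nearest to NFE2L2 and to KEAP1; overlapping genes were added after seeing the data. Some genes that this rule names are not reported here. Promoter coordinates are of GRCh38.p14 and were not combined with hg19 positions.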

Additional observations from a re-analysis of the deposited data

How the results depend on the processing

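With 18 alternatives each, all of the 10 genes but CUL3 kept their direction and their call; the lowest log2 fold change of any of those 9 was 0.94 (NFE2L1, quantile normalization). All 10 were called without any single library, with either other pseudocount, without a filter, and at a threshold of 0.01. The call of CUL3 ended with upper-quartile scaling (0.0724), rescaling to a common sum (0.0055) and quantile normalization (0.107), where 9 of the 10 were higher. Some counts of list members moved by over 1.5 times, and the cause was not tested. With upper-quartile scaling, NRF2 degradation outside KEAP1 had 4 higher and 9 lower, NFE2L1 processing 2 lower, autophagy receptors and SQSTM1 kinases 1 lower, and proteasome genes 15 lower. Rescaling to a common sum gave 4 higher and 9 lower for NRF2 degradation, 3 lower for NFE2L1 processing, 1 lower for autophagy receptors, 2 lower for NRF2 cofactors, and 11 higher and 17 lower for the proteasome. Quantile normalization gave 1 lower NRF2 target, 4 higher and 8 lower for NRF2 degradation, 2 lower for NFE2L1 processing, 1 lower for autophagy receptors, 2 lower for cofactors, and 9 higher and 20 lower for the proteasome. Without a filter, 3 other CNC-BACH and MAF genes were higher. With a mean FPKM of at least 5, 8575 genes were tested, of which 4419 were higher and 2922 lower. Of the genes called either way 60.2% were then higher, and the median log2 fold change was 0.19, against 51.5% and 0.02 in the main setting. In the heme axis 2 genes were lower with this filter. The list genes named above as not passing passed as lower with upper-quartile scaling, rescaling to a common sum and quantile normalization. They were SKP1 (-0.19, -0.26 and -0.37), VCP (-0.19, -0.26 and -0.38), HMOX2 (-0.22, -0.29 and -0.31), NCOA4 (-0.16, -0.23 and -0.35) and PSMB3 (-0.15, -0.22 and -0.39). Other list members, CAND1, CUL4A and several proteasome genes among them, changed in the same way. Some list members called higher with the deposited values were called lower instead. These were DDB1 and PSMD13 with each of these 3 scalings, and HDAC3 and PSMB1 with common-sum and quantile scaling. With quantile normalization alone they were PSMA7, PSMB7, PSMD12 and CBR1. Leaving out DMSO replicate 2 brought PSMB3 past the threshold (0.146) and leaving out YM155 replicate 1 brought NCOA4 (0.115). Replicate numbers are shared between the groups, and no source used here states that they pair the libraries. Same-numbered libraries did not deviate together (r of -0.071, -0.148 and -0.125). With 3 libraries per group this cannot decide whether they were paired. With a replicate block 5147 of all genes were higher and 4861 lower, and all 10 genes stayed higher. FPKM keep no counts, so no interval for counting error could be given, and levels under 1 FPKM are the least certain.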
